A study of Mus musculus with 2 samples.

Results

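A set of 9 genes that carry the interferon signal from the cell surface to the nucleus, or feed back on it, was followed: the receptor chains Ifnar1, Ifnar2 and Ifngr1, the kinases Jak1 and Tyk2, the transcription factors Stat2, Irf9 and Irf1, and the feedback gene Usp18. They were chosen by gene symbol, and every probe set carrying exactly 1 symbol from this set was used. That gave 16 probe sets for 9 of the 18193 genes with such a probe set on the array. The samples were 2 cultures of MOS-J, a mouse osteosarcoma line, described in the labels as lentivirus-transfected. The DKK1 group carried human DKK1, which encodes a secreted Wnt antagonist, and the control group a control vector. Each was profiled on 1 array from 500 ng of total RNA. The treatment notes describe clones kept under G418 after lentiviral delivery, and separately a nucleofected plasmid with blasticidin selection and later sorting of cells with red fluorescent mitochondria. The route taken by the profiled cultures is not stated in the labels, so whether each is 1 clone is unknown. Neither group has a replicate and no test was made, so each difference below compares these 2 arrays only, and precision is limited by their number. In such bulk samples, fewer cells expressing a gene and less RNA per cell cannot be told apart.

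Type I interferons bind a receptor made of IFNAR1 and IFNAR2, on which the kinases TYK2 and JAK1 sit, and interferon gamma binds a receptor whose ligand-binding chain is IFNGR1. The activated kinases phosphorylate STAT proteins, and STAT2 joins IRF9 in the complex that binds interferon-stimulated response elements in DNA. IRF1 is a transcription factor that interferon gamma induces, and USP18 removes the ubiquitin-like modifier ISG15 from proteins and also binds IFNAR2, where it dampens the receptor. Several of these genes are themselves known to be induced by interferon, Usp18 among them.

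Promoters from RefSeq (GRCm38.p6), 250 bases before to 50 after a gene's annotated start, matched 8 of the 9 genes, without Usp18. They were searched for the core of the interferon-stimulated response element, GAAA followed after any 2 bases by another GAAA, on either strand, and for the STAT-binding motif TTCNNNGAA, which reads alike on both strands. The first was found in 1 of the 8 genes (Stat2) and in 3.99% of 27025 genes with a promoter. The second was found in 3 of the 8 (Ifnar1, Ifnar2 and Irf1), against 9.55% of all. None of the 8 genes held both motifs, and the share of all genes holding both was not counted. The promoters of Stat2 (chr10:128270248-128270547, plus strand) and Irf1 (chr11:53769764-53770063, plus strand) are shown as 1 example of each motif, Stat2 as a called gene and Irf1 as a transcription factor gene, with the match in capitals at bases -222 to -213 and -90 to -82 from the annotated start. Irf1 has another annotated start, whose promoter (chr11:53770223-53770522) held neither motif. A match of letters describes the sequence and does not show binding.
Stat2: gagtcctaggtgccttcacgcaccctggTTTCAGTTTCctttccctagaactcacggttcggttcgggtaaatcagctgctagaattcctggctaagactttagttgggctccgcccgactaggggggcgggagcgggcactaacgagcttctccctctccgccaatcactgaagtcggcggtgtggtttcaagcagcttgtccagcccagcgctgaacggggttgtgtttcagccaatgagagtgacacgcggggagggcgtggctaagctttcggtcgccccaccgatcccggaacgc
Irf1: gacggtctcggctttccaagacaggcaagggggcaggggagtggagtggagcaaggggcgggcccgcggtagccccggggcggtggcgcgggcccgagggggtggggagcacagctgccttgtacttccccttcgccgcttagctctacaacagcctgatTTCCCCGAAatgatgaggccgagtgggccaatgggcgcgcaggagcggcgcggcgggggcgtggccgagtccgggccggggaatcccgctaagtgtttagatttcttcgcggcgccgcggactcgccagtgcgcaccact

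On the deposited scaling Usp18 and Stat2 were at least 2-fold higher in the DKK1 cells, and the other 7 genes were higher by less. Usp18 stayed at least 2-fold higher under all 11 alternative ways of processing, but Stat2 under 8 of them only. Jak1 and Ifngr1 turned below 0 when scaled on poly-A controls, and Jak1 also by its brightest probe set. Usp18 was 4.63-fold and Stat2 3.38-fold and 2.10-fold higher by its 2 probe sets, as ratios of the deposited signals. The remaining differences, DKK1 minus control in log2(signal + 16.6), lay between 0.22 for Jak1 and 0.83 for Ifnar2. A gene was called where its mean difference over measured probe sets was at least 1 (2-fold) and all of them had the same sign. A probe set counted as measured from a mean signal over both arrays of 71.3 upward. By this rule 2 of the 9 genes were called higher (22.2%), against 11.7% of 11058 measured genes, and 0 were called lower, against 6.91% of measured genes. With 9 genes, the excess over the background share amounts to 1 gene. All 9 differences were above 0, as were 55.9% of measured genes. The median was 0.64 over the 9 genes and 0.10 over all measured genes. Of their 15 measured probe sets, 3 had a difference of at least 1 with the pseudocount, against 12.1% of measured probe sets with 1 symbol. As plain ratios of the deposited signals, 5 reached 2-fold, with 1 probe set each of Ifnar1 (2.08) and Stat2 (2.10) added. The control signals of these 2 were below the filter. The share of all measured probe sets at 2-fold by plain ratio was not computed, so the count of 5 has no background beside it. By gene, 2 of the 9 were called higher without a pseudocount too. Among all 11058 measured genes, 1456 were called higher without it and 1293 with it.

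**Figure D1:**
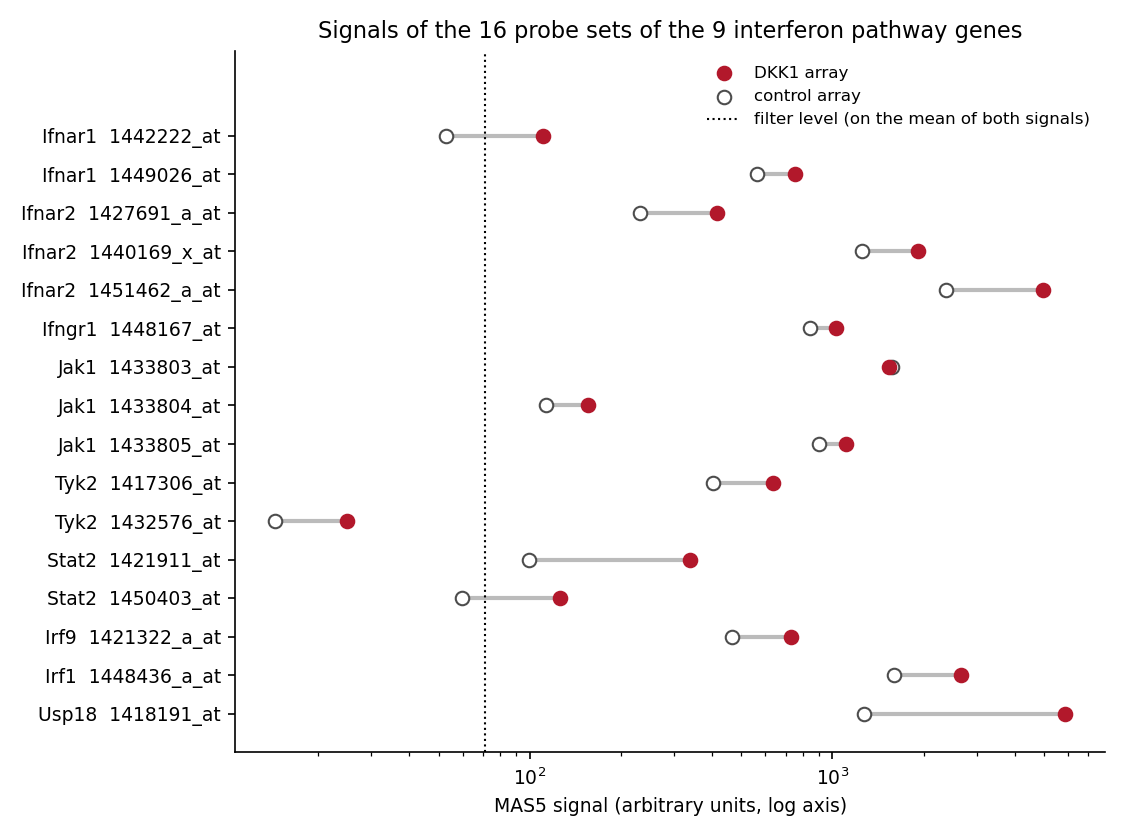
MAS5 signal (log axis) of each of the 16 probe sets on the DKK1 array (filled) and the control array (open), with the filter level of 71.3 as a dotted line. The filled point lies to the right in 15 of the 16 pairs. The exception is 1 Jak1 probe set (1535 in DKK1 and 1578 in control cells), and 1 Tyk2 probe set has both signals below the line.

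Of the receptor chains, Ifnar2 had the largest difference. Mouse Ifnar2 gives rise to membrane-bound and soluble forms of the chain, and the annotation used does not say which form each probe set reads. Probe set 1451462_a_at had a signal of 4975 in DKK1 cells and 2370 in control cells, a log2 difference of 1.06. Probe set 1427691_a_at had 417 in DKK1 and 232 in control cells (0.80), and 1440169_x_at had 1923 in DKK1 and 1248 in control cells (0.62). All 3 were higher in the DKK1 cells, and 1 of them passed 2-fold. The mean was 0.83 with an SD of 0.22 between probe sets, which describes agreement within the arrays and not between cultures. The ending _a_at marks probe sets that read several transcripts of a gene, and _x_at those with probes shared with other sequences, so the third value is the least specific.

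Ifnar1, the other chain of the type I receptor, was not called. Its brighter probe set 1449026_at had 750 in DKK1 and 563 in control cells (0.40). Its dimmer one, 1442222_at, had 110 in DKK1 and 53.0 in control cells (0.87), where the control signal lay below the filter. The mean was 0.63 (SD 0.33 between probe sets). The probe set with the larger difference was thus the dim one, and the brighter one gave a ratio of 1.33. Ifngr1 had 1029 in DKK1 and 842 in control cells by its 1 probe set, a difference of 0.28. This is above the all-gene median by 0.18, and 61.1% of measured genes had smaller differences.

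On mouse chromosome 16, Ifnar2, Il10rb, Ifnar1 and Ifngr2 follow each other without another protein-coding gene between them, by the gene order of the RefSeq table. The differences in that order were 0.83 for Ifnar2, 1.82 for Il10rb, 0.63 for Ifnar1 and 0.27 for Ifngr2. Il10rb encodes a chain shared by the receptors of interleukin 10 and interferon lambda. It had 1540 in DKK1 and 425 in control cells and was the 1 gene of these 4 called higher. The next 3 protein-coding genes, Tmem50b (-0.27), Dnajc28 (0.30) and Gart (-0.59), were not called. This row of neighbours was chosen after the values of the receptor genes had been seen.

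Neither kinase gene was called. JAK1 serves the type I and interferon gamma receptors and many other cytokine receptors. Its 3 probe sets had 1535, 1112 and 155 in DKK1 cells, against 1578, 905 and 113 in control cells. The differences were -0.04, 0.29 and 0.41, with a mean of 0.22 (SD 0.23 between probe sets), so the probe sets did not share one sign. The brightest probe set of Jak1 was the 1 measured probe set of the 15 with a lower signal in DKK1 cells. Among all measured probe sets with 1 symbol, 55.1% had a difference above 0. Tyk2, the kinase bound to IFNAR1, had 636 in DKK1 and 402 in control cells by probe set 1417306_at (0.64). Its probe set 1432576_at was dim on both arrays, at 24.9 in DKK1 and 14.4 in control cells, and was left out by the filter.

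Of the genes for the STAT2 and IRF9 complex, Stat2 was called and Irf9 was not. Stat2 probe set 1421911_at had 337 in DKK1 and 99.6 in control cells (1.61). Probe set 1450403_at had 126 in DKK1 and 59.9 in control cells (0.90), with the control signal below the filter. Both signals were higher in the DKK1 cells, and the mean was 1.25 (SD 0.50 between probe sets). The difference was larger than that of 92.3% of measured genes. Stat2 was a dim gene in control cells, and with dim signals raised to the filter level its mean was 1.15. The call ended with a larger pseudocount at the median signal (0.93), with quantile normalization (0.99) and with scaling on poly-A controls (0.69).

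Irf9, the DNA-binding part of that complex, had 729 in DKK1 and 465 in control cells (0.63) by 1 probe set. Irf1 had 2666 in DKK1 and 1594 in control cells (0.74), also by 1 probe set. Both were higher in the DKK1 cells by less than 2-fold, with ratios of 1.57 and 1.67. Of measured genes, 77.9% had a smaller difference than Irf9 and 81.3% a smaller one than Irf1.

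Usp18 stood highest of the 9. Its 1 probe set had a signal of 5873 in DKK1 and 1269 in control cells, both far above the filter. The difference was 2.20, and 230 of the 11058 measured genes had a larger one. It was called under all 11 alternatives, with differences of 1.56 to 2.57.

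**Figure D2:**
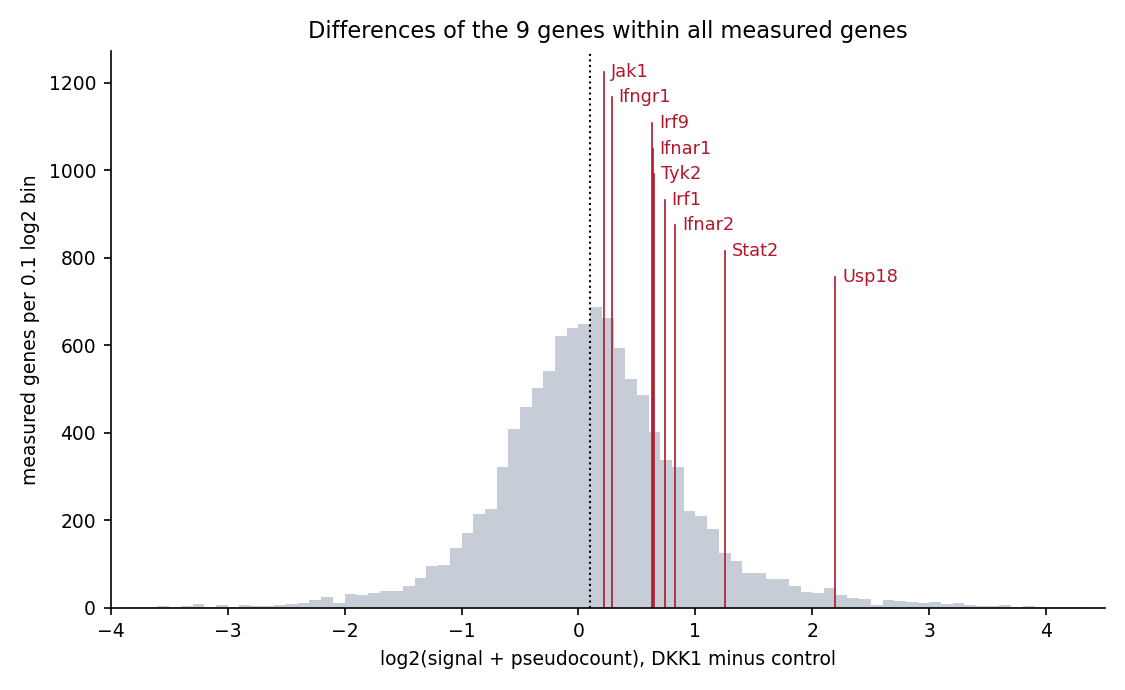
Number of measured genes per bin of 0.1 in the log2 difference, DKK1 minus control (grey), with the 9 genes as red lines and the median of all genes as a dotted line. The line heights only separate the names, and 32 genes beyond -4 or 4.5 are not drawn. On the deposited scaling all 9 lines lie right of the dotted line, from Jak1 (0.22) to Usp18 (2.20).

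The size of these differences depends on how the arrays are scaled, and spike-in controls place the scale differently. The median log2 ratio was -0.37 over 18 probe sets of hybridisation controls, which enter after labelling, and 0.64 over 20 probe sets of poly-A controls, which are labelled with the sample. Scaling on the hybridisation controls moved the median of all genes by 0.36, to 0.46. Then 5 of the 9 genes were called higher, with Ifnar2 (1.19), Tyk2 (1.003) and Irf1 (1.11) added. So were 2389 of 11057 measured genes on that scaling. Scaling on the poly-A controls moved the all-gene median by -0.62, to -0.52, where Ifngr1 (-0.35) and Jak1 (-0.39) turned below 0 and Usp18 alone was called (1.56). There, 472 of 11046 measured genes were called higher and 2663 lower. Relative to the median of all genes under each setting, Usp18 lay 2.07 to 2.29 above it, Stat2 0.85 to 1.55, Ifnar2 0.70 to 1.01 and Irf1 0.62 to 0.79. Tyk2, Irf9 and Ifnar1 lay 0.34 to 0.63 above it and Ifngr1 0.17 to 0.28. Jak1 lay between -0.10 and 0.14 of the all-gene median, the negative value being that of its brightest probe set.

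**Figure D3:**
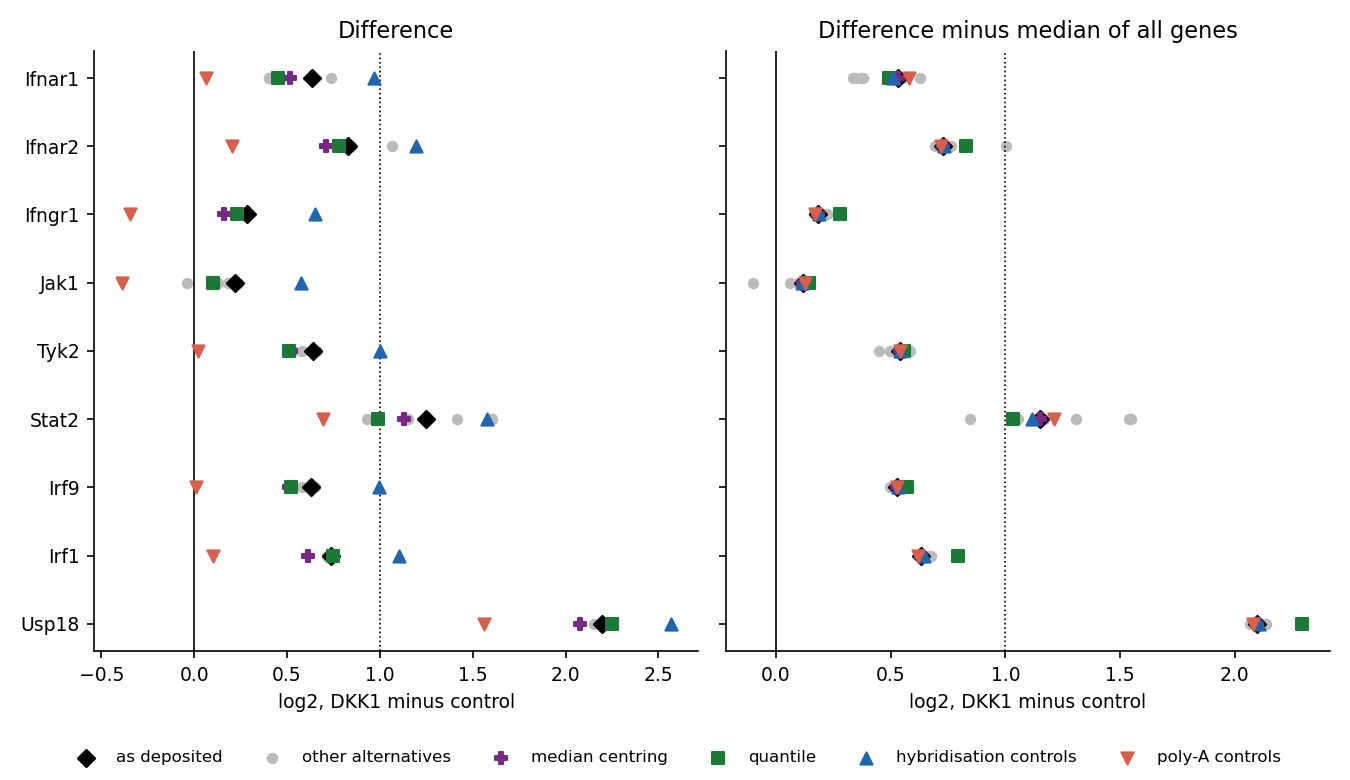
Differences of the 9 genes under the deposited scaling and each alternative, on the left as log2 differences of DKK1 minus control and on the right after subtracting the median of all genes under that setting. Solid lines mark 0 and dotted lines 1. The scalings spread the points on the left and come together on the right, where Usp18 lies at 2.07 to 2.29.

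Other genes of the pathway were taken from lists written with earlier results of these data known. For comparison, 11.7% of all measured genes were called higher and 6.91% lower, with a median of 0.10. Among receptor chains and kinases of related cytokines, 3 of 11 measured genes were called higher and 0 lower, with a median of 0.27. These were Il10rb, Il6st (1.45), which encodes the signalling chain gp130 of the interleukin 6 family, and Lifr (1.29), its partner for leukaemia inhibitory factor. Ifngr2, the second chain of the interferon gamma receptor, had 940 and 365 in DKK1 cells, against 634 and 369 in control cells, and was not called (0.27). Jak2, the kinase bound to that chain, was not called either (0.25, SD 0.59 between 2 probe sets). On the poly-A scaling the list median was -0.35, Il10rb alone stayed above 2-fold (1.19), and 2 genes were called lower. On that scaling 2663 of 11046 measured genes were called lower, and the all-gene median was -0.52. Without the filter on low values Lifr fell short of the call at 0.30.

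Of the other STAT genes, 1 of 4 measured was called higher and 0 lower, against 11.7% and 6.91% of all measured genes. Stat5a, a mediator of growth hormone and prolactin signals, had 918 in DKK1 and 331 in control cells (1.43). Stat3, which acts below gp130, had a mean of 0.86 over 4 probe sets, of which 3 were 2-fold or more and the dimmest was at 0.22. Stat6 (0.15) and Stat5b (-0.02) were not called, and the 2 probe sets of Stat5b went opposite ways. Of the IRF genes, 1 of 4 measured was called higher and 0 lower, against the same all-gene shares. Irf7, an interferon-induced factor that drives interferon genes, had 1350 in DKK1 and 263 in control cells (2.29), and it kept its call in all 10 alternatives that measured it. Irf2 (0.18), Irf3 (0.22) and Irf5 (0.00) were not called. The 3 measured probe sets of Irf3 disagreed, at -0.45, 0.06 and 1.05 (SD 0.77). Irf3 reached 2-fold (1.05) when probe sets ending in _s_at, _x_at or _a_at were left out. On the poly-A scaling the medians of the STAT and IRF lists were -0.10 and -0.40, and Stat5a (0.81) lost its call. The all-gene median on that scaling was -0.52.

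Negative regulators of cytokine signalling had 4 of 18 measured genes called higher and 1 lower, with a median of 0.31. Of all measured genes, 11.7% were called higher and 6.91% lower, with a median of 0.10. The higher ones were the suppressors Socs2 (1.60), Socs3 (1.48) and Cish (1.26), and the tyrosine phosphatase gene Ptpn1 (1.02). Socs3, which inhibits signalling at gp130, had 12919, 5889 and 1844 in DKK1 cells, against 5429, 2051 and 571 in control cells. All 3 probe sets were higher in the DKK1 cells by 2-fold or more. Socs1, the suppressor of the interferon receptors' kinases, had 121 in DKK1 and 72.6 in control cells (0.62) and was not called. Irf2bp2, a corepressor that binds IRF2, was the 1 lower gene (-1.02). On the poly-A scaling 0 of the 18 were called higher, 4 were called lower, and the median was -0.31. Of 11046 measured genes, 472 were called higher and 2663 lower on that scaling, with a median of -0.52. The call of Ptpn1 ended under 5 alternatives and that of Irf2bp2 under 3.

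The ISG15 pathway, which USP18 reverses, had 3 of 5 measured genes called higher and 0 lower, with a median of 1.32. Of all measured genes, 11.7% were called higher and 6.91% lower. Uba7, the activating enzyme, had a mean difference of 1.32 over 3 probe sets (SD 0.59). Ube2l6, the conjugating enzyme, had 344 in DKK1 and 127 in control cells (1.33). Herc6, the mouse ligase for ISG15, averaged 1.61 over 3 measured probe sets (SD 0.92). The ubiquitin ligase genes Trim25 (0.92) and Skp2 (0.21) were not called. On the poly-A scaling Herc6 alone kept its call (1.05), with a list median of 0.74, against -0.52 over all measured genes.

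Genes that interferon switches on were examined next. Of 34 measured type I interferon targets, 22 were called higher and 0 lower, against 11.7% and 6.91% of all measured genes. The list median was 1.60. The 3 largest were Ifit3 (3.93), an RNA-binding antiviral gene, Mx2 (2.98), a dynamin-like GTPase gene, and Oasl2 (2.73), of the oligoadenylate synthetase family. The control signal of Mx2, 15.9, was below the filter, so its difference depends on the pseudocount. Of 18 measured interferon gamma targets, 9 were called higher and 1 lower, with a median of 1.16. The 3 largest were the interferon-induced GTPase genes Iigp1 (3.55), Gbp3 (3.04) and Gbp2 (2.91), and the tryptophanyl-tRNA synthetase gene Wars was lower (-1.51). On the poly-A scaling the medians of these 2 lists were 0.98 and 0.55, with 16 and 8 genes called higher and 2 and 1 called lower. Of 11046 measured genes, 472 were called higher and 2663 lower on that scaling, with a median of -0.52. The 2 lower type I targets were Rsad2 (-1.09) and Ifi27 (-1.05), which were also below 0 on the deposited scaling, at -0.47 and -0.41. The higher direction of the type I targets as a group was known from earlier results of these data. No test of the difference between lists was made. The list names are labels only, and which interferon, if any, lies behind either list was not tested.

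**Figure D4:**
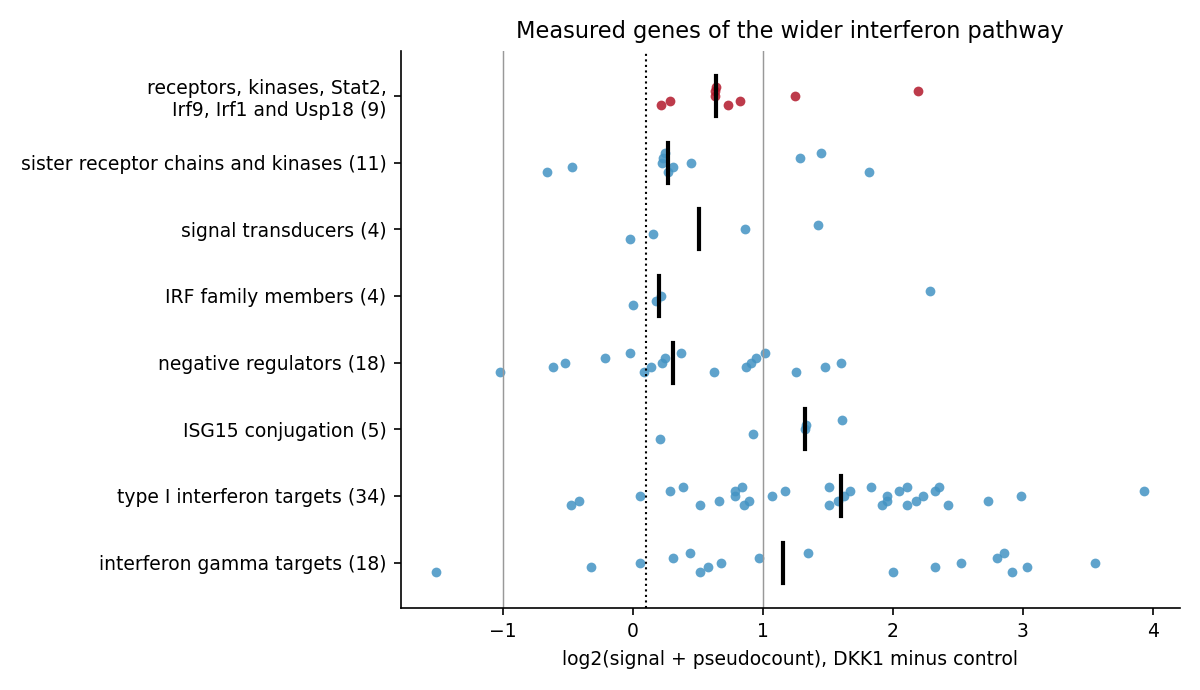
Log2 differences, DKK1 minus control, of the 9 genes (red) and of the measured genes of 7 related lists (blue), with list medians as black bars, the median of all genes as a dotted line and grey lines at 2-fold. Numbers in brackets count measured genes. The medians are 0.64 for the 9 genes, 1.60 for the type I targets and 0.20 to 0.51 for the receptor, STAT, IRF and negative regulator lists.

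Interferon genes themselves gave little signal. Of 10 ligand genes with a probe set, 9 were below the filter, including Ifnb1 (77.4 in DKK1 and 50.4 in control cells), Ifna1 (70.8 in DKK1 and 13.8 in control cells), Ifna11 (28.8 in DKK1 and 3.74 in control cells) and Ifng (2.51 in DKK1 and 13.3 in control cells). Without the filter, 3 of the 10 were called higher and 0 lower, with differences of 1.52 for Ifna1 and 1.16 for Ifna11. Of all 18193 genes, 1729 were called higher and 1025 lower without the filter. The control signals of Ifna1 and Ifna11 were below the pseudocount, so the size of both differences depends on it. The lowest differences among the 10 were those of Ifng (-0.65) and Ifna4 (-0.61). The median of the 10 was 0.23, against 0.08 over all genes without the filter. The 1 ligand gene above the filter was Ifnz, interferon zeta, with 140 in DKK1 and 14.6 in control cells, and with the dim signal raised to the filter its difference was 0.83, under 2-fold.

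The labelled cell type and possible other cells were checked by markers. Of the bone-lineage markers, 7 of 9 on the array were measured, with signals up to 24640 in DKK1 and 31456 in control cells for Col1a2, while the late osteoblast gene Ibsp was below the filter on both arrays. Dlx5 was left out by the filter too, at 36.8 in DKK1 and 77.4 in control cells. In the bone-lineage list 1 gene was called higher and 1 lower, against 11.7% and 6.91% of all measured genes. Postn, which encodes the matrix protein periostin, had 676 in DKK1 and 41.2 in control cells (3.58), with the control signal below the filter. The phosphate-regulating gene Phex had 1.97 in DKK1 and 200 in control cells (-3.54) by 1 probe set. That DKK1 signal was below the pseudocount, and the difference ran from -6.66 to -1.30 over 10 alternatives. The other Phex probe set was left out by the filter, at 4.43 in DKK1 and 2.42 in control cells (0.14). Without the filter the call of Phex ended. Of 13 leukocyte markers on the array 5 were measured, and 1 was called higher (Lyz2) and 1 lower (Laptm5). Neither call held with dim signals raised to the filter, at 0.80 and -0.57. Laptm5 rests on 1 of 5 probe sets, and its call also ended without the filter (-0.15), with the larger pseudocount (-0.68) and on the hybridisation scaling (-0.80). The signals of all 22 leukocyte probe sets summed to 1714 in DKK1 and 1297 in control cells. Cd14 had 521 in DKK1 and 370 in control cells (0.47), and Cd68 had 127 in DKK1 and 86.4 in control cells (0.48). Csf1r averaged 0.45 over 2 measured probe sets, and none of these genes was called. Both probe sets of Ptprc, which encodes the pan-leukocyte antigen CD45, were between 2.11 and 11.7 on both arrays. Of 6 endothelial markers 1 was measured and 0 were called. The measured one, Kdr, had 116 in DKK1 and 66.0 in control cells (0.68), and Cdh5 was at most 36.4.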

How the data were processed

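The authors deposited linear intensity values, 1 signal for each of 45101 probe sets on 2 arrays. Per the submitters' processing notes they were summarised with MAS5, with no version or settings given. Each array had a trimmed mean (2% off each end) of 500, so arrays were scaled separately. No detection calls were used. Gene symbols came from the platform annotation.

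The pseudocount, 16.6, is the 25th percentile of all signals, and the filter, 71.3, the median over probe sets of the 2 arrays' mean. It left 11058 genes. Differences were computed in Python 3.11.15 with pandas 2.3.3, and the calculation was tested on simulated data. The 11 alternatives changed the pseudocount, filter, scaling, treatment of dim signals and choice of probe sets. All members were named, with every measured gene allowed from the receptor, STAT, IRF and negative regulator lists, and from other lists the 3 largest called. Wars, Rsad2, Ifi27, Trim25, Skp2, the neighbours of the receptor genes, the markers and the ligands were named outside this rule, after their values were seen. List entries under other symbols were matched through RefSeq synonyms. The members and lists were chosen with earlier results of these data known. With 1 array each, batch and group cannot be told apart.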

Additional observations from a re-analysis of the deposited data

How the results depend on the processing

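No paired analysis was possible because each group has 1 array. A value counted as moved where it shifted by more than 0.45, the pooled SD between probe sets of a gene, or, for a count, by more than 1.5 times. Of the 9 genes, 2 were called higher as reported. That count was 1 with the pseudocount at the median signal, 1 with quantile normalization, 1 on the poly-A scaling and 5 on the hybridisation scaling. All measured genes called higher were, in the same order, 913 of 11058, 968 of 11047, 472 of 11046 and 2389 of 11057. With the brightest probe set per gene the count among the 9 was 3, where 1325 of 11058 measured genes were called higher. In the remaining alternatives it was 2, out of 6 measured where probe sets ending in _s_at, _x_at or _a_at were left out. All measured genes called higher there ran from 1043 of 11058 with median centring to 1729 of 18193 without the filter. In all 11 alternatives 0 of the 9 genes were called lower. The median of the 9 genes was 0.061 on the poly-A scaling and 0.52 to 1.003 in the other 10. Leaving out probe sets ending in _s_at, _x_at or _a_at removed Ifnar2, Irf9 and Irf1. Calls over all genes were 1293 higher and 764 lower (62.9% higher). They were 2389 and 381 on the hybridisation scaling (86.2%), 472 and 2663 on the poly-A scaling (15.1%), and the share was 51.4% with median centring and 49.8% with quantile normalization. Dim signals limit the Stat2 and Ifnar1 values most.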
